A study of Mus musculus with 9 samples.

Results

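Genes of the cells that build the brain's blood vessels were followed in the hippocampus of mice whose neural lineage carried an activating Braf allele. The set holds 34 genes, chosen by symbol: 24 genes of the endothelium, the cell layer that faces the blood, and 10 of the mural cells (pericytes and smooth muscle) wrapped around it. All 34 of the 34 were found among the 18275 genes measured, and all 34 had a mean value of at least 10 over the libraries, the level above which 16196 genes were tested.

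RNA came from 9 hippocampi of male C57BL/6N mice aged 11 to 15 weeks, with 1 library per animal. The 4 Nestin;BrafKE/+ mice carried 1 Braf allele with the K499E change, which lies behind a floxed wild-type cassette and is expressed from the gene's own promoter once Cre has removed that cassette. Cre was driven by the Nestin promoter, which is active in neural stem cells, so that the neurons and glia descending from them carried the active allele. The 5 Braf+/+ mice were littermates without the mutant allele. Whether these controls carried Cre is not given in the sources used here. By the names in the labels the libraries form 3 series, written A, B and C. The mutant replicate 1 shared series A with control replicates 1 to 3, mutant replicates 2 and 3 shared series B with control replicate 4, and mutant replicate 4 shared series C with control replicate 5.

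In the brain, endothelial cells are sealed to each other by tight junctions and carry transporters that feed the tissue and pump foreign compounds back into the blood, which together make the blood-brain barrier. Pericytes sit on capillaries within the same basement membrane, smooth muscle cells ring the arterioles, and the endfeet of astrocytes cover the outside of the wall. Endothelium arises outside the neural lineage, and neurons and astrocytes signal to the cells of the wall. The comparison of the genotypes asked how genes used as markers of vessel cells stood in a tissue whose neurons and glia carried the allele. Whether vessel cells carried the active allele is not shown by these data. In bulk tissue, RNA of these genes from other cell types is counted together with that of vessel cells.

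Braf itself was lower in the mutant libraries, at 2264 ± 144 (SD, n = 4) against 2786 ± 153 (SD, n = 5) in controls, a log2 fold change of -0.30 with an adjusted p of 0.0378 in limma. The adjusted p rose to between 0.0540 and 0.203 in 7 of the 9 fits that left out 1 library, and was 0.0768 with 4 name prefixes as the series and 0.0609 with array weights. Braf+/+ replicates 1 and 2 share a prefix that no mutant library has. In the prefix fit they therefore drop out of the genotype estimate, for any gene. Series C holds 1 library of each genotype, and leaving out either gave the same log2 fold change (-0.2962 for Braf). For any gene, those fits are therefore not separate checks. The values are a normalised signal with no unit of reads, so the depth behind them is unknown. Library totals ran from 19551000 to 20092000. One library stood apart for vessel and choroid plexus genes: Braf+/+ replicate 2 was the highest of the controls for 22 of the 34 genes and the highest of all 9 libraries for 13. Its summed signal of 10 choroid plexus genes was 428410, against 5041 to 158850 in the other libraries. Nestin;BrafKE/+ replicate 1 was the lowest of the mutants for 19 genes.

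Markers of the labelled cell types were present in every library. In controls, the signal per kilobase of exon was 435 for Cldn5, the main claudin of the brain endothelial tight junction, 370 for the pericyte gene Rgs5 and 103 for the smooth muscle actin Acta2. Over the 34 genes it ran from 11.8 for Higd1b to 605 for Ly6e. The more abundant of them per kilobase included the glucose transporter Slc2a1 (413) and the large neutral amino acid transporter subunit Slc7a5 (410), and the scarce ones included Anpep (14.97), Abcc9 (15.7) and Vwf (15.8).

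Most of the vascular genes stood close to the control level, and 4 changed. Cspg4, Robo4 and Vwf rose in Nestin;BrafKE/+ hippocampi and Slco1c1 fell. Of the 34, 4 passed an adjusted p of 0.05, or 11.8%, against 2.88% of all genes tested. The 34 genes were chosen with earlier results of these data known, which limits the reading of that share. Among 102 vascular genes outside the set it was 2.94%. Genes called higher made up 3 of the 34, against 1.52% of all genes, and genes called lower 1 of the 34, against 1.36%. Values of the genotypes did not overlap for 6 of the 34 genes (17.6%), against 15.7% of all genes. An unadjusted p under 0.05 was found for 9 genes (26.5%), against 18.5% of all genes. The median log2 fold change was 0.06 over the 34 genes and 0.0003 over all genes, with 23 genes above 0 and 11 below. Regardless of sign, the median log2 change was 0.146 over the 34 genes and 0.121 over all genes. Without Braf+/+ replicate 2, or without Nestin;BrafKE/+ replicate 2 or 3, 2 of the 34 genes passed the threshold (Cspg4 and Slco1c1), and without either Nestin;BrafKE/+ replicate 1 or Braf+/+ replicate 4 only Cspg4 did. Nestin;BrafKE/+ replicate 1 is the only mutant of series A and Braf+/+ replicate 4 the only control of series B. With a term for series, leaving out either takes that whole series out of the genotype estimate. A call lost there, for any gene, thus reflects more than the 1 library. In bulk tissue, more or fewer cells of a type and more or less RNA per cell cannot be told apart.

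**Figure D1:**
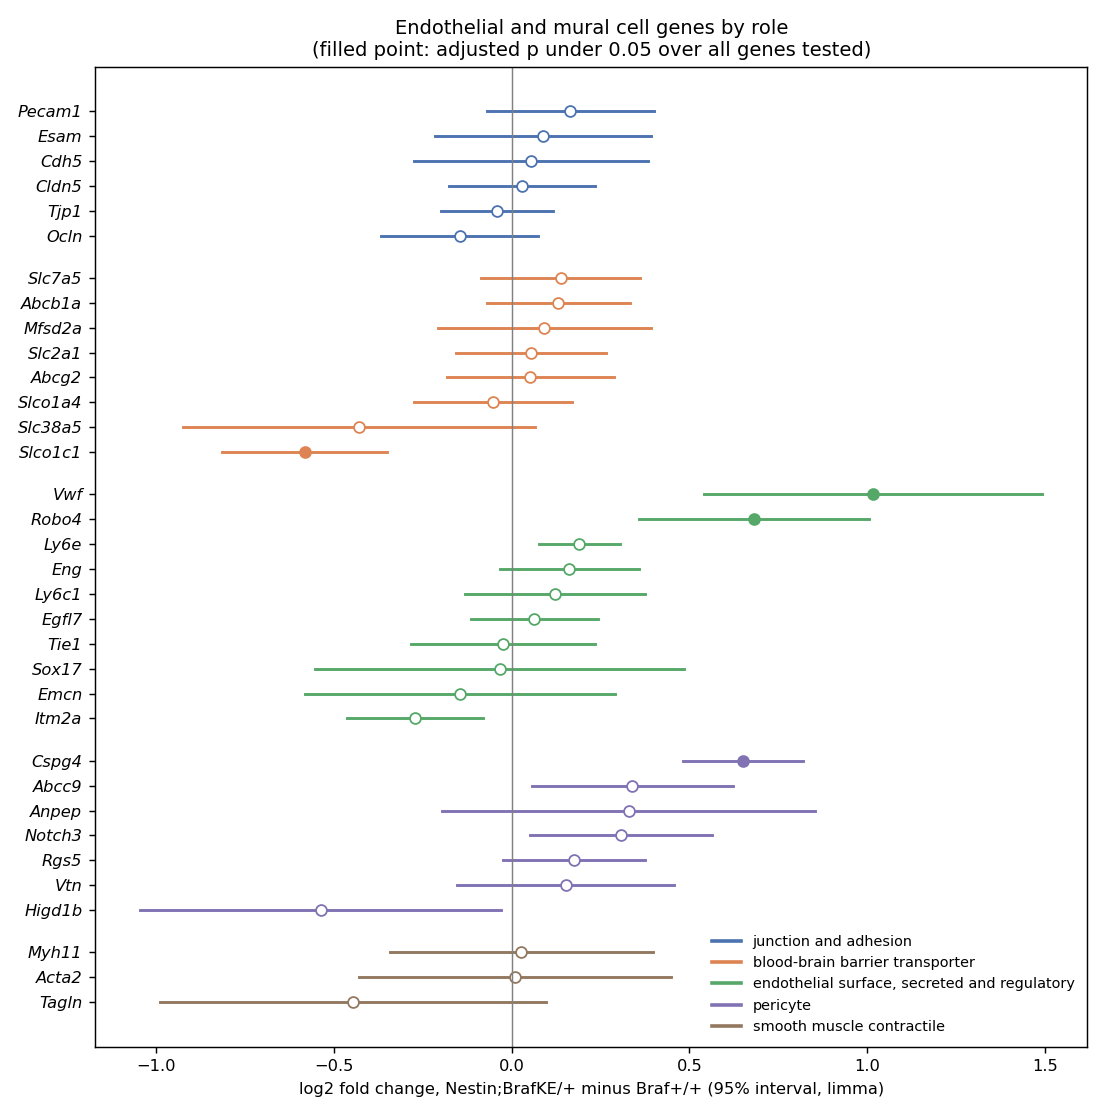
Log2 fold change of each of the 34 genes (x axis, Nestin;BrafKE/+ minus Braf+/+, limma) with its 95% interval, grouped and coloured by role. Filled points mark the 4 genes with an adjusted p under 0.05, Vwf, Robo4 and Cspg4 to the right of 0 and Slco1c1 to the left, while most other intervals cross 0.

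Cspg4 encodes the NG2 proteoglycan, which pericytes and oligodendrocyte precursors both carry. The gene lies on chromosome 9, from 56772317 to 56807187 on the plus strand (GRCm39). Its signal was 502, 475, 505 and 510 in the 4 mutant libraries and 309, 327, 311, 327 and 309 in the 5 control libraries. All mutant libraries thus lay above all control libraries, with little spread inside either group. The means were 498 ± 15.9 (SD, n = 4) and 317 ± 9.66 (SD, n = 5). The fitted log2 fold change was 0.65, or 1.57-fold (SE 0.08, 95% interval 0.48 to 0.82, adjusted p = 0.00261 in limma), which placed Cspg4 24th among all genes by p. Within the series the log2 difference was 0.67, 0.58 and 0.72 in A, B and C. The exact permutation p was 0.00794 over all assignments of the genotypes and 0.0417 over those within series, each the smallest value that the design can give. Cspg4 stayed past the threshold without any one library, with an adjusted p of at most 0.0473, reached without Nestin;BrafKE/+ replicate 1.

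Oligodendrocyte precursor genes stood higher beside Cspg4. The summed signal of 8 precursor genes fixed as a list ran from 7186 to 8078 in mutant and from 5844 to 7020 in control libraries, without overlap. None of the 8 passed the threshold in limma, 3 had an unadjusted p under 0.05, and their median log2 fold change was 0.27. Pdgfra, the defining receptor of these precursors, stood at 0.27 (adjusted p = 0.0842). Among mural genes outside the set, Pdgfrb, the receptor that defines pericytes, had nearly the same value, 0.28 (adjusted p = 0.0944), and its groups did not overlap either. The part of precursors and of pericytes in the Cspg4 difference was not tested.

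**Figure D2:**
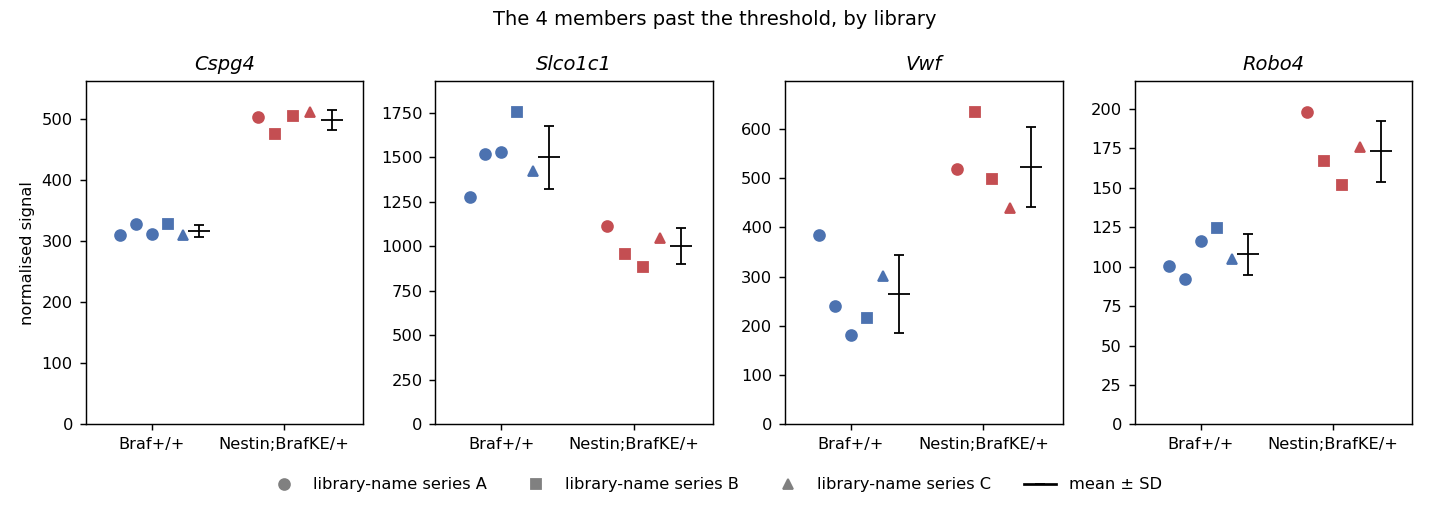
Normalised signal (y axis, linear and from 0) of Cspg4, Slco1c1, Vwf and Robo4 in each library, 5 Braf+/+ in blue and 4 Nestin;BrafKE/+ in red, with symbols for the series of library names and black bars for mean ± SD. The genotypes do not overlap in any panel, and the gap is widest relative to the spread for Cspg4 (475 to 510 against 309 to 327).

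The 6 other pericyte genes were mixed. Counted with Cspg4, 6 of the 7 pericyte genes had a fold change above 0, with a median of 0.31 on the log2 scale, and 1 passed the threshold. Abcc9, a subunit of the ATP-sensitive potassium channel of pericytes, had values of 203, 228, 249 and 237 in mutants and 170, 222, 176, 166 and 174 in controls. Only Braf+/+ replicate 2 reached into the mutant range. The log2 fold change of Abcc9 was 0.34 (SE 0.13, 95% interval 0.06 to 0.62, adjusted p = 0.189). Notch3, the Notch receptor of mural cells, followed the same layout with 294 to 353 in mutants and 226 to 296 in controls, at 0.31 (0.05 to 0.56, adjusted p = 0.185). Both missed the threshold, with 3 of 4 mutant libraries above all controls.

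Anpep, which encodes the surface peptidase CD13, varied more between animals. It measured 56.2, 98.4, 67.9 and 93.7 in mutants and 56.6, 80.0, 69.7, 54.2 and 50.04 in controls. The groups overlapped broadly, and the log2 fold change was 0.33 (SE 0.24, 95% interval -0.19 to 0.85, adjusted p = 0.501). It ranged from 0.13 without Nestin;BrafKE/+ replicate 4 or Braf+/+ replicate 5 to 0.72 without Nestin;BrafKE/+ replicate 1. Rgs5, a regulator of G protein signalling that is abundant in brain pericytes, stood at 0.18 (-0.02 to 0.37, adjusted p = 0.333), and Vtn, the matrix protein vitronectin, at 0.15 (-0.15 to 0.46, adjusted p = 0.603).

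Higd1b, a small membrane protein gene typical of pericytes, was the pericyte gene with a value below 0. It measured 26.1, 21.9, 33.9 and 22.9 in mutants and 37.8, 35.0, 39.8, 34.1 and 43.0 in controls. The groups did not overlap, but the highest mutant and the lowest control nearly touched. The log2 fold change was -0.54 (SE 0.23, 95% interval -1.04 to -0.03, adjusted p = 0.245). Higd1b was also the scarcest of the 34 genes, with a mean of 32.7.

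Smooth muscle contractile genes did not pass the test, and their spread was among the widest of the set. Acta2 stood at 326 ± 45.8 (SD, n = 4) in mutants and 332 ± 95.9 (SD, n = 5) in controls, a log2 fold change of 0.01 (95% interval -0.43 to 0.45). Myh11, the smooth muscle myosin heavy chain, stood at 0.03 (-0.34 to 0.40). Tagln, which encodes the actin-binding protein transgelin, measured 123, 184, 152 and 148 in mutants and 171, 361, 169, 166 and 208 in controls. Here Braf+/+ replicate 2 stood far above the other controls, and the log2 fold change of -0.45 (SE 0.25, 95% interval -0.99 to 0.10) had an adjusted p of 0.373. It was -0.30 without that library, -0.21 without Nestin;BrafKE/+ replicate 1 and -0.69 without Braf+/+ replicate 4. Braf+/+ replicate 2 was also the highest of all libraries for Acta2 and Myh11, at 488 and 338.

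Among the 10 endothelial surface, secreted and regulatory genes, 2 rose and 6 had a fold change above 0. The larger change was that of Vwf, which encodes von Willebrand factor, the secreted glycoprotein that tethers platelets and is richest in the endothelium of veins and larger vessels. The gene spans 125523737 to 125663642 on the plus strand of chromosome 6 (GRCm39). Vwf measured 519, 634, 499 and 440 in mutants and 385, 240, 181, 217 and 301 in controls. All 4 mutants were above all 5 controls, although the controls ranged widely among themselves. The means were 523 ± 81.2 (SD, n = 4) and 265 ± 79.9 (SD, n = 5), and the fitted log2 fold change was 1.02, or 2.02-fold (SE 0.22, 95% interval 0.54 to 1.49, adjusted p = 0.0343 in limma). The log2 difference was 1.02, 1.37 and 0.54 in series A, B and C. The exact permutation p was 0.0159 over all assignments and 0.0417 within series.

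The call on Vwf was lost in 5 of the 9 fits that left out 1 library and in some other fits. Nestin;BrafKE/+ replicate 1 and Braf+/+ replicate 4 are the libraries whose loss also takes out a series. Leaving out Nestin;BrafKE/+ replicate 1 raised the adjusted p to 0.155, replicate 2 to 0.0650 and replicate 3 to 0.0802. The control replicates that mattered were 2 and 4 (0.0591 and 0.216), while the log2 fold change stayed between 0.83 and 1.18. It was lost as well with array weights (0.0759), with robust eBayes (0.0667) and with the choroid plexus level as a covariate (0.0784).

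Robo4, an endothelial roundabout receptor known for vessel stability, lies on chromosome 9 from 37313193 to 37326411 on the plus strand (GRCm39). It measured 198, 167, 152 and 175 in mutants and 100, 92.0, 116, 125 and 105 in controls. Again every mutant library exceeded every control. The means were 173 ± 19.2 (SD, n = 4) and 108 ± 12.9 (SD, n = 5), with a fitted log2 fold change of 0.68, or 1.605-fold (SE 0.15, 95% interval 0.36 to 1.01, adjusted p = 0.0366 in limma). Differences within the series were 0.94, 0.35 and 0.73 on the log2 scale in A, B and C, and the exact permutation p was 0.00794 over all assignments and 0.0417 within series. The call did not survive the loss of any library: the adjusted p was 0.0503 to 0.215 in the 9 fits that each left 1 out, highest without Nestin;BrafKE/+ replicate 1, with log2 fold changes from 0.52 to 0.86. It was also lost with 4 name prefixes as the series (0.0913), with array weights (0.0548) and with the choroid plexus level as a covariate (0.0669). In the prefix fit, the controls of the prefix without mutants drop out of the genotype estimate.

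Haemoglobin genes stood higher in the mutants beside these endothelial genes. The summed signal of 4 globin genes and Alas2 was 3489 to 6184 in mutant and 3180 to 3579 in control libraries, with 0 of the 5 past the threshold in limma and 4 with an unadjusted p under 0.05. With the level of this blood list as a covariate, the log2 fold change was 0.82 for Vwf (adjusted p = 0.211) and 0.66 for Robo4 (adjusted p = 0.175), and only Cspg4 of the 34 genes stayed past the threshold. Without the covariate the fold changes were 1.02 and 0.68. Over all genes tested, the covariate lowered the count past the threshold from 466 to 110. The part of blood RNA in the Vwf and Robo4 differences was not tested.

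The other surface and regulatory genes of the endothelium were nearer the control level. Ly6e, a lipid-anchored surface protein gene, measured 3056 to 3206 in mutants and 2636 to 2906 in controls. Its groups did not overlap, at a log2 fold change of only 0.19 (SE 0.05, 95% interval 0.08 to 0.30, adjusted p = 0.0785). Itm2a, which encodes an integral membrane protein of brain endothelium, measured 694, 802, 742 and 845 in mutants and 886, 978, 1015, 922 and 843 in controls. It lay lower in series A and B and level in C (-0.47, -0.26 and 0.0047), with a log2 fold change of -0.27 (SE 0.09, 95% interval -0.46 to -0.08, adjusted p = 0.129). Without Nestin;BrafKE/+ replicate 1 it was -0.145.

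The 6 other genes of this role were not called either. Eng, the TGF-beta co-receptor endoglin, stood at 0.16 (95% interval -0.03 to 0.36) and the angiopoietin co-receptor Tie1 at -0.02 (-0.28 to 0.23). The transcription factor gene Sox17 stood at -0.03, with an interval of -0.55 to 0.48 that leaves room for a sizeable change either way. Egfl7, which encodes a secreted factor of endothelial cells, stood at 0.06, the surface antigen gene Ly6c1 at 0.12 and Emcn, the sialomucin endomucin, at -0.15. Exons of Egfl7 overlap those of Gm20532 and Mir126a on the same strand, and Ly6c1 has close relatives in the same gene family, so reads of these genes may be split.

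Barrier transporters gave the single decrease. Slco1c1 encodes OATP1C1, the thyroxine carrier of brain endothelium, which the choroid plexus also expresses. It lies on chromosome 6 from 141469705 to 141516710 on the plus strand (GRCm39). Slco1c1 measured 1115, 957, 883 and 1046 in mutants and 1275, 1516, 1531, 1754 and 1422 in controls, so that every mutant library was below every control. The means were 1000.1 ± 102 (SD, n = 4) and 1500 ± 175 (SD, n = 5). The fitted log2 fold change was -0.58, or 0.668 of the control level (SE 0.11, 95% interval -0.81 to -0.35, adjusted p = 0.0178 in limma). In series A, B and C the log2 difference was -0.36, -0.93 and -0.44. The exact permutation p was 0.00794 over all assignments and 0.0417 within series.

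The control library highest for Slco1c1, Braf+/+ replicate 4, was also the second highest for choroid plexus genes (158850 summed signal). Other libraries did not follow that order. Braf+/+ replicate 2, with the highest sum (428410), had Slco1c1 at 1516, and Braf+/+ replicate 3 had 1531 at a sum of 19550. Nestin;BrafKE/+ replicate 1 had 1115 at a sum of 39200. All 10 choroid plexus genes had fold changes below 0, with a median of -1.39 on the log2 scale, and 0 passed the threshold in limma, 4 having an unadjusted p under 0.05. With their level as a covariate the log2 fold change of Slco1c1 was -0.49 (adjusted p = 0.0372 in limma). Without Braf+/+ replicate 4 the fold change was -0.40 and the adjusted p 0.0948, and without Nestin;BrafKE/+ replicate 1 they were -0.72 and 0.0534. With the blood list as a covariate it was -0.60 with an adjusted p of 0.104. The choroid plexus level itself differed between the genotypes, with a mean log2 deviation of -0.75 in mutants and 0.60 in controls. The covariate fit therefore cannot separate that level from genotype. The part of choroid plexus RNA and of other cell types in the Slco1c1 difference was not tested.

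None of the other transporters was called. Slco1a4, an organic anion carrier gene that neighbours Slco1c1 on chromosome 6, stood at -0.05 (95% interval -0.28 to 0.17). Slc2a1, the glucose transporter of the barrier, stood at 0.06 (-0.16 to 0.27), and Slc7a5, which carries large neutral amino acids and thyroid hormone, at 0.14 (-0.09 to 0.36). The efflux pump genes Abcb1a and Abcg2 stood at 0.13 (-0.07 to 0.33) and 0.05 (-0.18 to 0.29), and Mfsd2a, the lysolipid carrier that restrains transcytosis, at 0.09 (-0.21 to 0.39). Abcb1a has a close paralog, Abcb1b, with which reads may be shared. Slc38a5, a glutamine transporter gene, measured 35.1, 44.7, 27.95 and 33.9 in mutants and 48.7, 57.0, 37.8, 46.2 and 49.0 in controls. It was lower within all 3 series, but at this low signal the log2 fold change of -0.43 (SE 0.22, 95% interval -0.92 to 0.07) had an adjusted p of 0.344.

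Genes of the junctions showed no call. The 6 ran from -0.15 for Ocln, the tight junction protein occludin, to 0.17 for Pecam1, the adhesion molecule CD31. Cldn5 measured 572, 698, 594 and 654 in mutants and 568, 667, 670, 585 and 591 in controls. These ranges nearly coincide, and the log2 fold change was 0.03 (SE 0.09, 95% interval -0.17 to 0.23). The scaffold gene Tjp1 stood at -0.04 (-0.20 to 0.12), Cdh5, the endothelial cadherin, at 0.05 (-0.28 to 0.38), and the adhesion molecule gene Esam at 0.09 (-0.22 to 0.39). Of the 30 genes of the whole set that were not called, 22 had an interval wholly between -0.5 and 0.5.

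**Figure D3:**
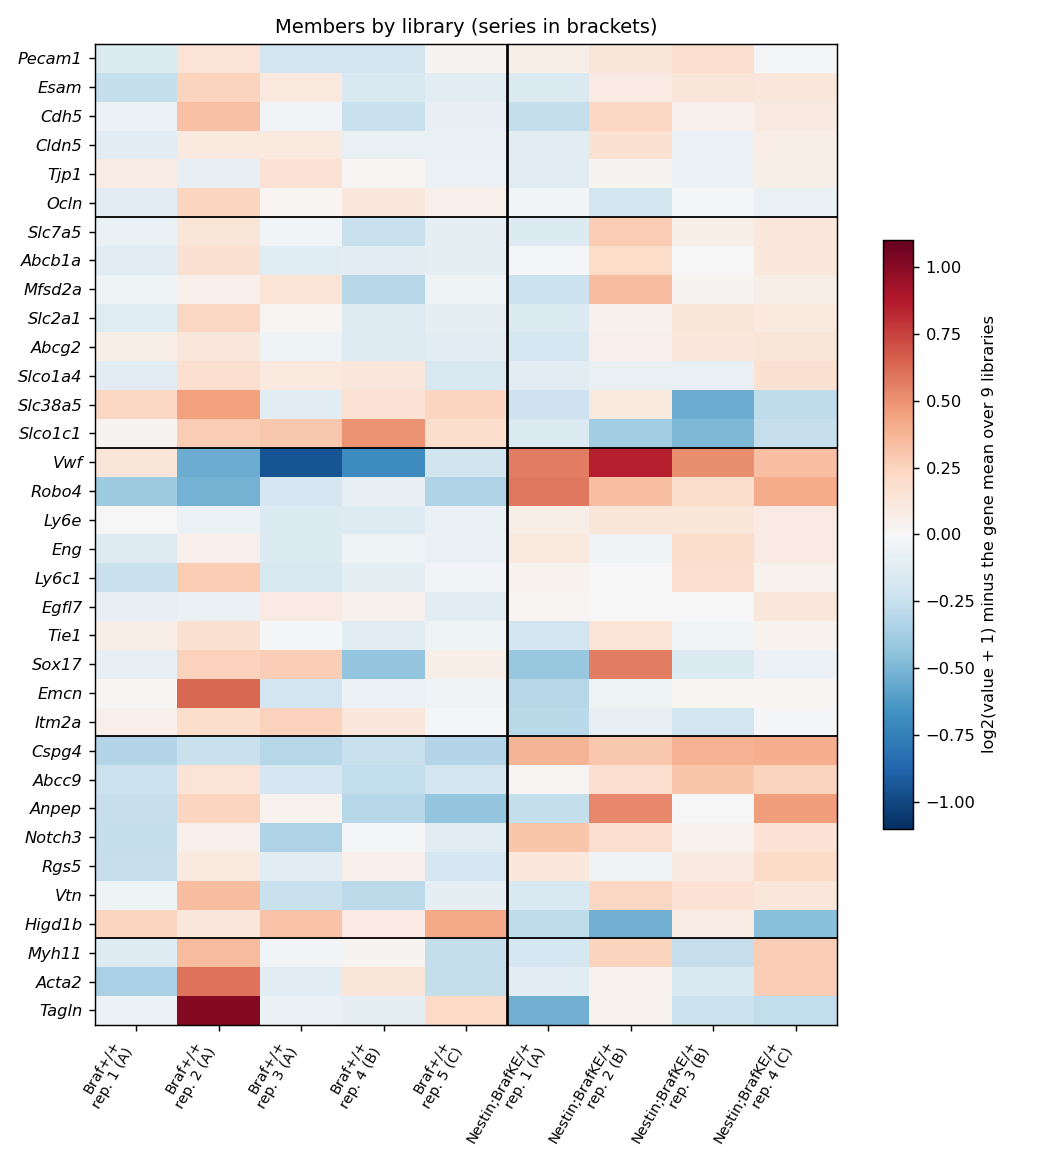
Log2(value + 1) of each gene (rows, by role) in each library (columns, controls left and mutants right, series in brackets) minus the gene's mean over the 9 libraries, red above and blue below. Cspg4, Robo4 and Vwf are red in all 4 mutants, Slco1c1 is blue in all 4, and the red column of Braf+/+ replicate 2 covers most other rows, with Tagln the strongest.

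The sign of the difference was not the same in all 3 series for most of the set. Each series holds a single library of at least 1 genotype, so a sign within a series can rest on 1 animal. Within series A, which holds Braf+/+ replicate 2 among its 3 controls and Nestin;BrafKE/+ replicate 1 as its only mutant, 22 of the 34 genes were lower in the mutant. In series B 11 were lower and in series C 7. Within all 3 series, 9 genes were higher and 4 lower, and 21 were mixed. The same shares over all genes tested are not given here, so these counts are not read as a result about the set. The 4 genes past the threshold kept 1 direction in all 3 series, as did Abcc9, Notch3, Ly6e, Ly6c1, Eng and Abcb1a on the higher side and Higd1b, Slc38a5 and Ocln on the lower. Over the 24 endothelial genes, the mean log2 difference was -0.08, 0.16 and 0.12 in A, B and C, and over the 10 mural genes -0.07, 0.17 and 0.27.

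**Figure D4:**
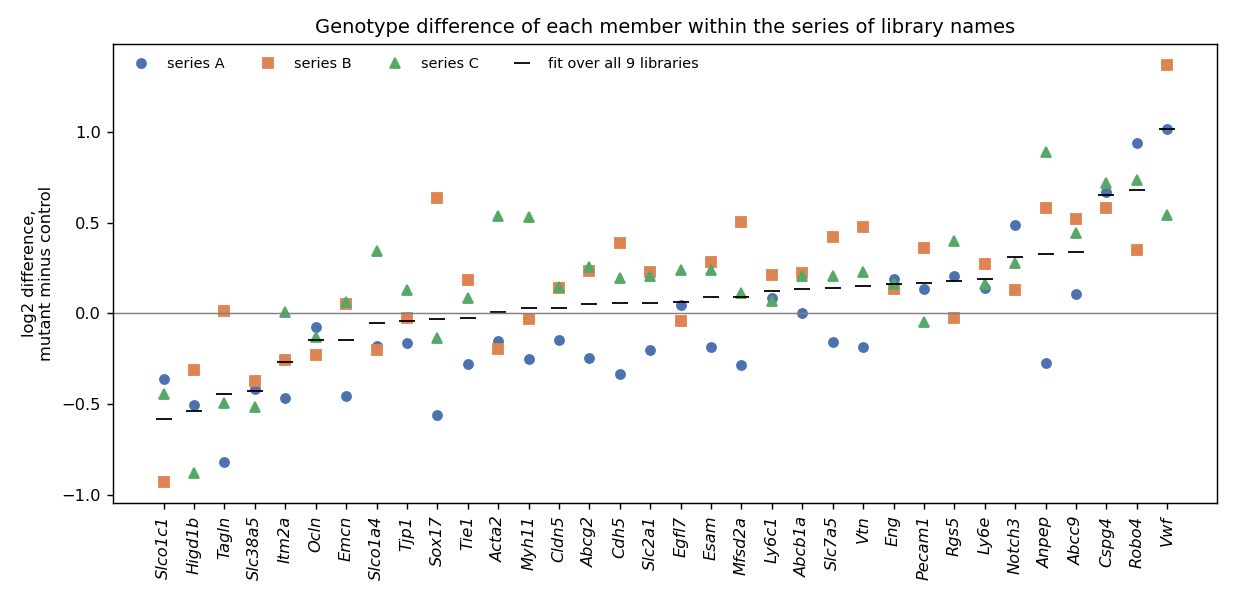
Log2 difference between Nestin;BrafKE/+ and Braf+/+ libraries (y axis) of each of the 34 genes (x axis, ordered by the fit over all 9 libraries, black dashes) within series A (circles), B (squares) and C (triangles). In series A 22 genes lie below 0, against 11 in B and 7 in C, while the symbols of Cspg4, Robo4 and Vwf at the right end all lie above 0.

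Vascular genes outside the set were read from fixed lists. Of 102 such genes tested, 3 passed the threshold (2.94%, against 2.88% of all genes), 1 higher and 2 lower, and 17 had an unadjusted p under 0.05, with a median log2 fold change of 0.016. The general endothelial list of 30 genes, which includes the VEGF receptor genes Flt1 and Kdr, had 13 above 0 and a median of -0.03. Jam2, a junctional adhesion molecule that astrocytes and other cells also express, was the 1 gene of that list past the threshold. It rose from 853 ± 39.2 (SD, n = 5) to 1131 ± 96.6 (SD, n = 4), at 0.40 (adjusted p = 0.0210), and lost the call without Nestin;BrafKE/+ replicate 1 (0.155), Nestin;BrafKE/+ replicate 3 (0.0592) or Braf+/+ replicate 4 (0.115). The list of 18 further mural genes had 15 above 0 and a median of 0.20, with 0 past the threshold in limma and 3 with an unadjusted p under 0.05.

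Venous and activated endothelium, where Vwf is also listed, held a decrease. Il1r1, the interleukin-1 receptor that brain endothelium and some neurons express, measured 119, 143, 140 and 139 in mutants and 318, 324, 244, 257 and 274 in controls. The groups did not overlap, and the fitted log2 fold change was -1.06, or 0.480 of the control level (SE 0.13, adjusted p = 0.00324 in limma), and the log2 difference was -1.29, -0.86 and -0.98 in series A, B and C. The adjusted p was 0.0534 without Nestin;BrafKE/+ replicate 1. The 6 genes tested in that list outside the set had 4 values below 0, and their summed signal was 1814 to 2004 in mutant and 2093 to 2568 in control libraries. Vwf rose, whereas Slc38a5, which is listed there too, stood at -0.43 and was not called.

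Growth factor and Wnt signalling genes around the vessel were mostly near the control level. Tgfb2, a ligand of the TGF-beta family, was the only one of 29 growth factor signalling genes past the threshold, and fell by 0.53 on the log2 scale (adjusted p = 0.0159). It lost the call without Nestin;BrafKE/+ replicate 1 (0.0534) or Braf+/+ replicate 4 (0.114). Of 17 genes of the Wnt and beta-catenin signalling that maintains the barrier, 0 passed the threshold in limma and 3 had an unadjusted p under 0.05, with a median of 0.0068. The 9 arterial genes had a median of 0.06 and no call, with 0 at an unadjusted p under 0.05.

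Cells that border the vessel were read in the same way. Of 12 astrocyte endfoot genes, 2 rose: Kcnj10, the potassium channel Kir4.1, at 0.32 (adjusted p = 0.0178) and the adhesion molecule gene Hepacam at 0.30 (adjusted p = 0.0195). Each lost the call without Nestin;BrafKE/+ replicate 1 or 3 or Braf+/+ replicate 4, with an adjusted p of 0.0590 to 0.137. Summed signal of the list was 29979 to 31208 in mutant and 26850 to 28318 in control libraries, and 7 of the 12 had an unadjusted p under 0.05. The 5 perivascular macrophage genes were all above 0, with a median of 0.34, 0 past the threshold and 2 with an unadjusted p under 0.05 in limma. Their summed signal was 186 to 275 in mutant and 142 to 221 in control libraries. Of 11 fibroblast genes 1 rose, the collagen gene Col1a1, at 0.96 (adjusted p = 0.0214), which was not past the threshold without Nestin;BrafKE/+ replicate 1 (0.0825) or 3 (0.0653) or Braf+/+ replicate 4 (0.114).

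Neurons, astrocytes and microglia make up most of the dissected tissue. Summed signal of 8 neuronal genes was 119600 to 122680 in mutant and 123830 to 132600 in control libraries, but 4 of the 8 genes were above 0 and 4 below (median -0.03, 4 with an unadjusted p under 0.05), and the mean log2 deviation of the list overlapped (-0.0329 to -0.0031 in mutants and -0.0047 to 0.0478 in controls). For 8 astrocyte genes the sums overlapped (91144 to 100680 against 88582 to 100990), whereas the mean log2 deviation did not (0.0691 to 0.13 in mutants and -0.0903 to -0.0496 in controls), and 6 of the 8 had an unadjusted p under 0.05. The 6 microglial genes summed to 6385 to 7062 in mutants and 5878 to 6490 in controls, with 2 at an unadjusted p under 0.05. In the astrocyte list Ntsr2 rose at 0.33 (adjusted p = 0.0161), a call lost without Nestin;BrafKE/+ replicate 1 (0.103) or Braf+/+ replicate 4 (0.104), and no neuronal or microglial gene of these lists passed the threshold. With 4 name prefixes in place of the 3 series, the calls on Jam2, Tgfb2, Kcnj10, Hepacam and Ntsr2 were lost as well, at adjusted p-values of 0.0508 to 0.0629. The prefix fit also takes the controls of the prefix without mutants out of the genotype estimate. With the blood list as a covariate, limma lost Tgfb2 (adjusted p = 0.0863), Kcnj10 (0.0541), Hepacam (0.0808), Ntsr2 (0.130), Col1a1 (0.154) and Braf (0.170). The calls on Jam2 (0.0436) and Il1r1 (0.0317) held in that fit. The part of the neuronal, astrocyte and microglial levels in the vascular values was not tested.

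**Figure D5:**
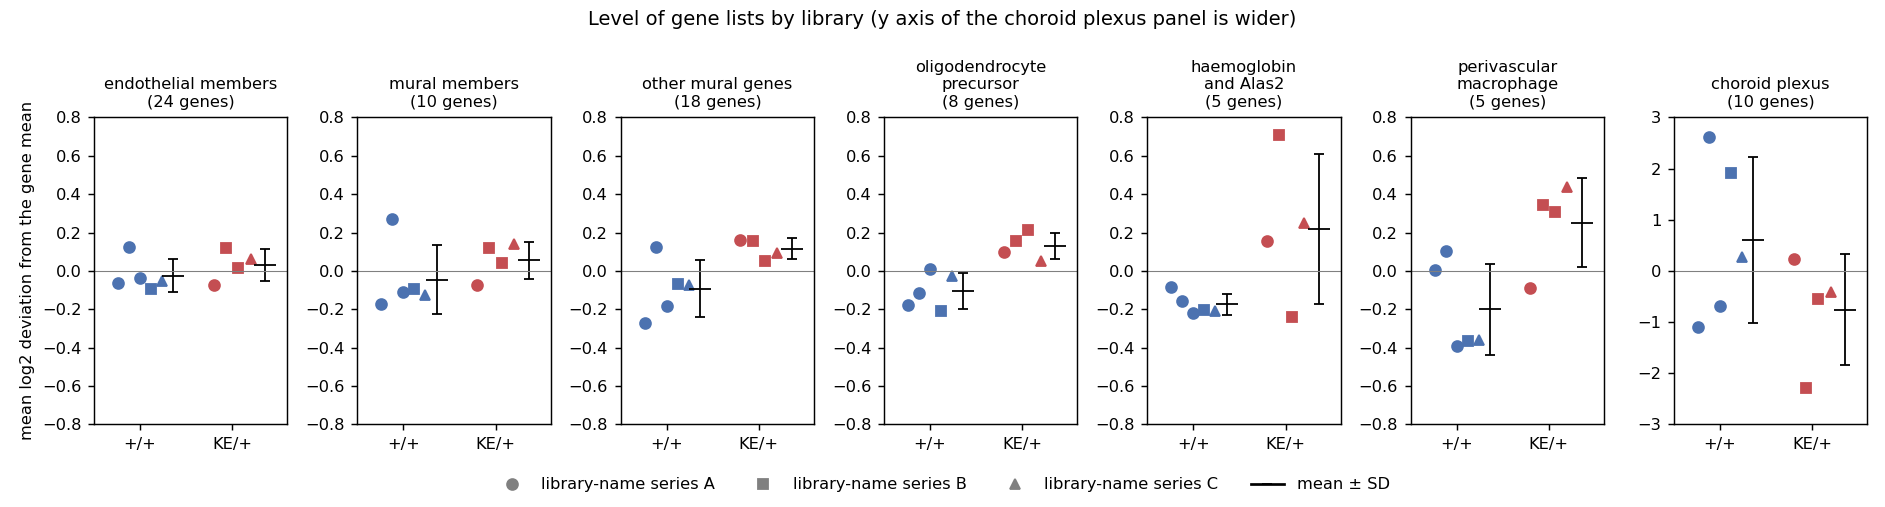
Level of 7 gene lists in each library, as the mean over the list's genes of log2(value + 1) less the gene's mean over the 9 libraries, for Braf+/+ (blue) and Nestin;BrafKE/+ (red), with symbols for the series and black bars for mean ± SD; the choroid plexus panel has a wider y axis. The endothelial genes overlap between the genotypes, the oligodendrocyte precursor genes do not, and Braf+/+ replicate 2 is the highest control for the mural (0.27) and choroid plexus (2.61) lists.

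Position on the chromosome was recorded because Braf lies on chromosome 6. Of the 34 genes 5 lie there, and 2 of these passed the threshold, Vwf and Slco1c1. They start 85.8 and 102 Mb beyond Braf, and the nearest, Abcg2, 18.9 Mb beyond it. Of all 800 genes tested on chromosome 6, 24 passed (3.0%). None of Cspg4, Robo4, Vwf and Slco1c1 shares exon sequence with another annotated gene on either strand. Of the other genes of the set 16 overlap an exon on the opposite strand only, which the stranded kit marks, but whether the counting used the strand is not given in the sources used here.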

How the data were processed

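Stranded mRNA libraries (TruSeq) were made by the authors from the hippocampus of 4 Nestin;BrafKE/+ and 5 Braf+/+ mice. Per the study's methods and processing notes, the authors trimmed reads with Trim Galore, used STAR on GRCm39 and Salmon, removed effects of unnamed batches and scaled for DESeq2. The deposited table holds 1 normalised signal per gene and library, made by the authors. Its values are whole multiples (100.0%, tolerance 0.01) of a step of 0.993 to 1.004 in each library, but they are not sequenced reads after the adjustment, so no count model was used. Depth is unknown, and precision comes from the spread between animals. That spread was measured after the batch adjustment, so SDs, SEs and p-values may be too small. Whether the name series match the authors' batches is not given in the sources used here.

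Groups came from the labels, and 0 columns were left unused. limma 3.58.1 in R 4.3.3 (lmFit, eBayes with trend) was run on log2(value + 1) of genes with a mean of at least 10, with terms for genotype and name series. Fold changes are on that scale and understate those of low genes. Benjamini-Hochberg adjustment covered every gene tested, and 0.05 was the threshold. For single genes, two-sided exact permutation tests used all 126 assignments of genotype (smallest p 0.00794) or the 24 that keep the series (smallest p 0.0417). List levels are averages of each gene's log2 deviation from its own mean. The fit was tested on simulated data.

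The genes and all lists were chosen with earlier results of these data known. By rule, each of the 34 genes has its value, those past the threshold or with the 5 highest and 5 lowest fold changes are given in full, genes of other lists are named where past the threshold, and Braf is given as the targeted gene. Pdgfra, Pdgfrb, Flt1, Kdr and Alas2 are named outside that rule. Aplnr, Lcn2, Map3k7cl, Olfr78, Sele and Selp of the other lists were not tested (mean under 10 or not found). Coordinates and exon lengths are from Gencode vM39 on GRCm39, which holds all 34 gene IDs. The alternatives changed the pseudocount (0.5 or 8), the filter (none, or a mean of 50), the scaling (median of ratios, quantiles), the series term (dropped, 4 name prefixes, or a replicate block), the weights (array weights, robust eBayes) and the libraries (each left out). Covariates for choroid plexus and blood were chosen after seeing the data. The mean of each level differed between the genotypes, so these fits cannot fully separate the levels from genotype. Figures used Python 3.11.15, pandas 2.3.3 and matplotlib 3.10.9.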

Additional observations from a re-analysis of the deposited data

Results flagged for a closer look

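Single libraries far from the rest of their group were found in 5 of 68 groups of values (34 genes in 2 genotypes), where chance gives about 1 in 20. Of the 5, 4 were in Braf+/+ replicate 2, each as the highest control. That library had a signal of 361 for Tagln (other controls 166 to 208), 163 for Emcn (90.6 to 106), 222 for Abcc9 (166 to 176) and 746 for Abcb1a (605 to 621). The fifth was Slco1a4 in Nestin;BrafKE/+ replicate 4, at 1147 against 933 to 965 in the other mutants. None of these 5 genes passed the threshold in limma over all genes tested, with or without the library concerned.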

How the results depend on the processing

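Cspg4 passed the threshold under every alternative run, and no gene past the threshold changed direction. The count of the 34 genes past it was 4, of 466 genes in all. It became 8 of 2260 without the series term, 2 of 258 with array weights and 1 of 110 with the blood covariate, and genes in all became 165 with 4 name prefixes. The prefix fit rests on fewer controls, because those of the prefix without mutants drop out of the genotype estimate. With a replicate block in place of the series term the counts were 6 and 1405, but same-numbered libraries did not deviate together (r from -0.39 to 0.41 over 4 numbers), and 1 of 8 libraries correlated best with its own number. Leaving out 1 library gave 1 to 3 of the 34 genes and 42 to 371 in all, lowest without Nestin;BrafKE/+ replicate 1, then Braf+/+ replicate 4 (97). Those are the fits in which series A or B drops out of the genotype estimate. The choroid plexus covariate brought in Rgs5 (0.29, adjusted p = 0.0421) and lost Vwf and Robo4, as well as Braf (adjusted p = 0.0832) and Col1a1 (adjusted p = 0.0510) outside the set. No scaling moved the median of all genes by over 0.0026. Of 746 values of the 34 genes under alternatives, 668 kept direction and call, and 46, in 15 genes not past the threshold, changed sign. The cause was not tested. On the log2 scale the signs changed for Myh11 (-0.0359) and Acta2 (-0.0555) with the replicate block, for Sox17 (0.0081), Tie1 (0.0427) and Emcn (0.0084) with 4 prefixes, for Mfsd2a (-0.0179) and Slco1a4 (0.0151) with the choroid plexus covariate, and for Myh11 (-0.19), Acta2 (-0.0756), Cldn5 (-0.0642), Cdh5 (-0.0477) and Mfsd2a (-0.0507) with the blood covariate. Leaving out 1 library spread Esam over -0.0154 to 0.26, Vtn over -0.0214 to 0.37, Myh11 over -0.15 to 0.21, Sox17 over -0.39 to 0.31, Slc2a1 over -0.0373 to 0.22, Mfsd2a over -0.13 to 0.33, Abcg2 over -0.0436 to 0.24, Slco1a4 over -0.19 to 0.031, Tjp1 over -0.10 to 0.0394, Cdh5 over -0.12 to 0.30, Tie1 over -0.14 to 0.14, Acta2 over -0.18 to 0.12, Slc7a5 over -0.0119 to 0.33, Cldn5 over -0.0287 to 0.14 and Emcn over -0.25 to 0.0558.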
